A study of Arabidopsis thaliana with 12 samples.

Results

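The interaction between genotype and treatment asks of each gene whether its response to flg22 had the same size in Arabidopsis seedlings without arginyl transferases as in the wild type. It was computed on the log2 scale as the flg22 response of ate1-2 ate2-1 (termed a1a2) minus that of Col-0, and all 12 of the 12 libraries entered it. The libraries formed 4 groups of 3 replicates, namely Col-0 mock, Col-0 flg22, a1a2 mock and a1a2 flg22. Mock was water, flg22 was given at 1 µM, and RNA was taken from whole seedlings 10 days old after 1 h of treatment. Both lines are in the Col-0 accession, and all groups were grown on plates with sucrose in continuous light and then kept in liquid medium for a day before treatment. Each replicate pooled 50 seedlings, so a value describes a pool of whole seedlings and not one organ. In such bulk samples, fewer cells of a type and less RNA per cell cannot be told apart.

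flg22 is a peptide of bacterial flagellin that the receptor kinase FLS2 perceives together with the co-receptor BAK1. Perception sets off calcium influx, an oxidative burst and MAP kinase cascades, and within the first hour the transcript levels of many genes change, a program called pattern-triggered immunity (PTI). ATE1 and ATE2 attach arginine to the N-terminus of proteins, a mark that the Arg/N-degron pathway reads to degrade them. The best known plant targets are the ERF-VII transcription factors, which activate genes of the hypoxia response and are degraded in normal air. A negative interaction of a gene that rises with flg22 means a weaker rise in a1a2, and a positive one a stronger rise. For a gene that falls with flg22 the signs are the other way round.

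The deposited estimated counts summed to between 20285662 and 22433536 per library. In CPM (the reads of a gene per library, scaled with edgeR's TMM factors to a common total), ATE1 lay between 20.7 and 28.4 in the 6 Col-0 libraries and between 2.19 and 4.22 in the 6 a1a2 libraries, and ATE2 lay between 4.68 and 6.73 in Col-0 and between 0.148 and 0.513 in a1a2, so that both targeted genes followed the labels. The summed level of 8 photosynthesis genes lay between 34432 and 65691 CPM and that of 8 root genes between 3102 and 5018 CPM. For the root genes flg22-treated Col-0 (4366 to 4455 CPM) lay above mock-treated a1a2 (3674 to 4345 CPM), and the other ranges of these lists overlapped. The seed list summed to between 2.59 and 4.47 CPM in Col-0 and between 38.7 and 106.6 CPM in a1a2, nearly all of it from ICL, the glyoxylate cycle enzyme isocitrate lyase, while the seed storage gene SESA1 held at most 3 counts in every library. The flower and pollen list summed to between 0.39 and 2.61 CPM. The part of tissue make-up in the results was not tested.

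flg22 changed a similar number of genes in both genotypes. With a threshold of 1.5-fold and an adjusted p under 0.05 in edgeR, 3132 of 20439 tested genes rose in Col-0 (15.3%) and 1894 fell (9.27%). In a1a2, 3160 rose (15.5%) and 1915 fell (9.37%). The balance depended on the scaling, since with library size alone 2450 rose and 3972 fell in Col-0, and 2425 rose and 3928 fell in a1a2. That scaling moved the median flg22 response of all tested genes from -0.01 to -0.26 in Col-0 and from -0.00134 to -0.26 in a1a2, and left the median interaction at 0.01. For the interaction, edgeR called 0 of 20439 genes at an adjusted p under 0.05 (0%), while 431 genes (2.11%) had an unadjusted p under 0.05. If no gene differed, that unadjusted threshold would pass a share of 0.05 on average, so the 431 genes are not an excess. Their share lay below 0.05, and the cause was not tested. The 0 calls do not show that the responses were equal. DESeq2, with the same replicate block, called 4 genes (0.0196%), all described below, and without the block it called 0. The median interaction of all tested genes was 0.01, and the fitted value was above 0 for 53.8% of them. It was above 0 within all 3 replicate numbers for 12.2% and below 0 in all 3 for 10%.

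**Figure D1:**
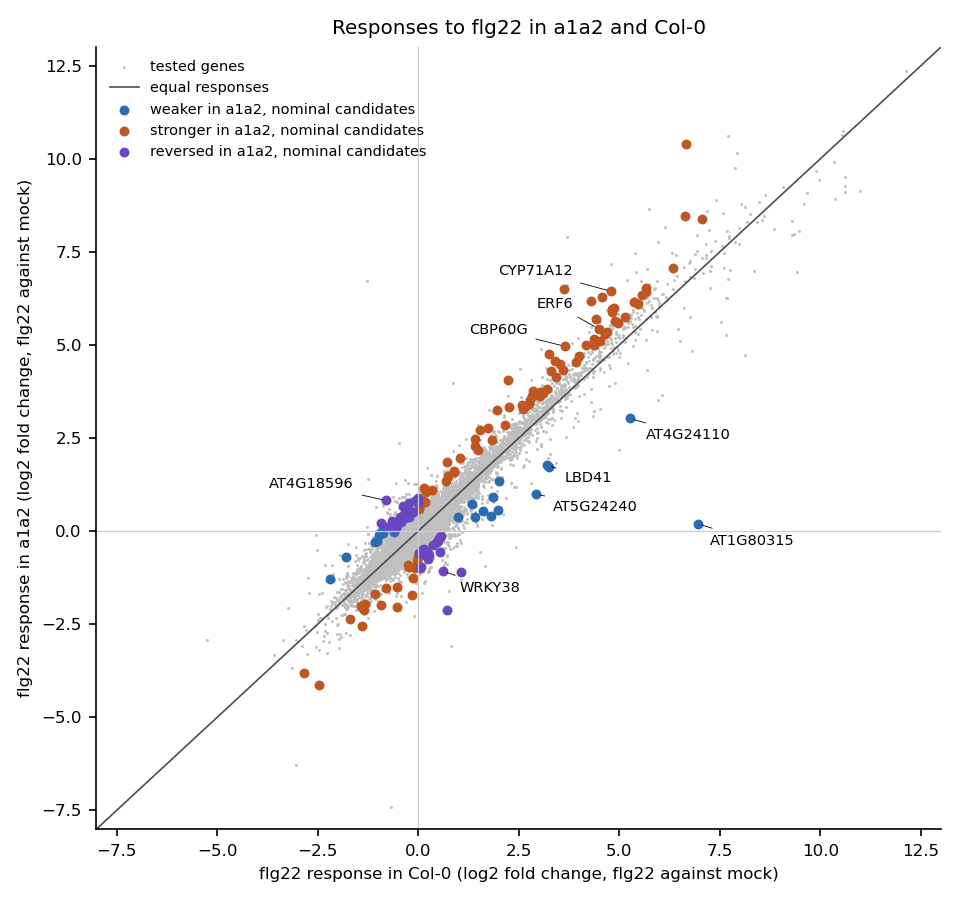
Fitted flg22 responses (log2 fold change, flg22 against mock) of the tested genes in Col-0 (horizontal axis) and in a1a2 (vertical axis), with the genes of the 3 classes of different response coloured and the genes called by DESeq2 named. ERF6, CYP71A12, WRKY38, AT4G18596 and AT1G80315 are also named and were not called. The genes lie along the line of equal responses, and AT4G24110, LBD41 and AT5G24240 lie below it while CBP60G lies above it.

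The precision of these values limits what can be read from them. For the 19018 tested genes whose mean reached 1 CPM, the median 95% confidence interval of the interaction reached 0.37 on either side of the estimate on the log2 scale, and for 63.4% of them the whole interval lay within 1.5-fold in either direction. Among the 5769 genes with a called flg22 response in either genotype the median reached 0.49 on either side. There, 2364 genes (41.0%) had their whole interval within 1.5-fold and 4286 (74.3%) within 2-fold. For the other genes the interval does not exclude a difference of that size.

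Genes to be described were taken as those with an unadjusted interaction p under 0.05, an interaction over 1.5-fold, a mean of at least 1 CPM and the same sign in all 3 replicate numbers. These were 151 of 20439 genes (0.739%). In the fit without replicate number 2, 92 genes met the rule, 61 of them among the 151. The mean level and the signs were still those of all 12 libraries there. The values that chose the 151 genes are given as a description and support nothing by themselves. The genes were sorted by the signs and sizes of the 2 fitted responses on the log2 scale. Of them, 21 had a weaker fitted response in a1a2, 90 a stronger one and 40 one of opposite sign. Weaker and stronger thus refer to fold changes and not to differences in CPM. The weaker class held 13 genes with a fitted rise in both genotypes and 8 with a fitted fall, and the stronger class 70 and 20. In the opposite-sign class 11 genes had a called response in either genotype, and the median level was 2.31 CPM against 16.8 CPM in the stronger class. LpxD2, with an interaction of -0.76, lay just inside the limit on p, and AT3G44716, with -0.81, just outside it. The adjusted p of the interaction was 1 in edgeR for every gene named, and DESeq2 values are given where they passed.

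The weaker responses, in fold change, were led by AT4G24110 and LBD41, genes of the hypoxia response. In mean CPM both rose more in a1a2 than in Col-0. AT4G24110 went from 1.39 to 51.2 CPM in Col-0 and from 10.7 to 79.3 CPM in a1a2. LBD41 went from 3.02 to 29.6 CPM in Col-0 and from 39.7 to 128 CPM in a1a2. AT5G24240, described below, rose less in a1a2 on both scales. AT4G24110 (chr4:12519907-12520898, minus strand), which RefSeq annotates as an NADP-specific glutamate dehydrogenase, stood at 2.31, 1.2 and 0.68 CPM in replicates 1, 2 and 3 of mock-treated Col-0 and at 63.8, 48.3 and 41.3 CPM after flg22. In a1a2 it stood at 19.4, 8.28 and 4.46 CPM in mock and at 94.7, 80.1 and 63.3 CPM after flg22. The ranges of the genotypes did not overlap in mock, and after flg22 they overlapped only between 63.3 and 63.8 CPM. The rise was thus 38.2-fold in Col-0 and 8.16-fold in a1a2, and the interaction was -2.23 ± 0.40 (SE, 95% interval -3.11 to -1.34). It was -2.46, -1.97 and -1.95 within replicate numbers 1, 2 and 3. In mock the gene was higher in a1a2 by 2.87 on the log2 scale (edgeR adjusted p = 0.0019), and after flg22 the difference was 0.64 (edgeR adjusted p = 0.24). The interaction had an adjusted p of 1.25e-05 in DESeq2.

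LBD41 (AT3G02550, chr3:536500-538126, minus strand), a LOB-domain transcription factor, was higher in a1a2 under both treatments. It stood at 3.15, 3.10 and 2.80 CPM in mock-treated Col-0 and at 42.8, 30.7 and 15.3 CPM after flg22. The a1a2 libraries held 66.3, 32.7 and 20.1 CPM in mock and at 172, 133 and 78.3 CPM after flg22. Replicate 1 was the highest of every group, and mock-treated a1a2 overlapped with flg22-treated Col-0. The rise was 9.28-fold in Col-0 and 3.39-fold in a1a2, and the interaction of -1.45 ± 0.30 (SE) was made up of -2.35, -1.25 and -0.46 in the 3 replicate numbers. Its adjusted p was 0.0179 in DESeq2.

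AT5G24240 (chr5:8230916-8234150, minus strand), annotated as a phosphatidylinositol 4-kinase gamma-like protein, showed a weaker response from a lower level. In Col-0 it stood at 4.81, 6.33 and 6.97 CPM in mock and at 62.7, 49.2 and 31 CPM after flg22. In a1a2 the values were 0.592, 1.27 and 0.70 CPM in mock and 2.22, 1.36 and 1.48 CPM after flg22. Every a1a2 library was below every Col-0 library. The gene rose 7.65-fold in Col-0, whereas the change in a1a2 was 0.99 on the log2 scale and did not pass (edgeR adjusted p = 0.10). The interaction was -1.94 ± 0.53 (SE, DESeq2 adjusted p = 0.0327), with -1.92, -2.85 and -1.15 in the replicate numbers, and the fits that each left out a library or a number gave -2.37 to -1.43. The gene lies opposite AT5G24230, whose interaction was 0.06, and whether counting used the strand is not given in the sources used here, so reads of the pair may not be told apart.

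**Figure D2:**
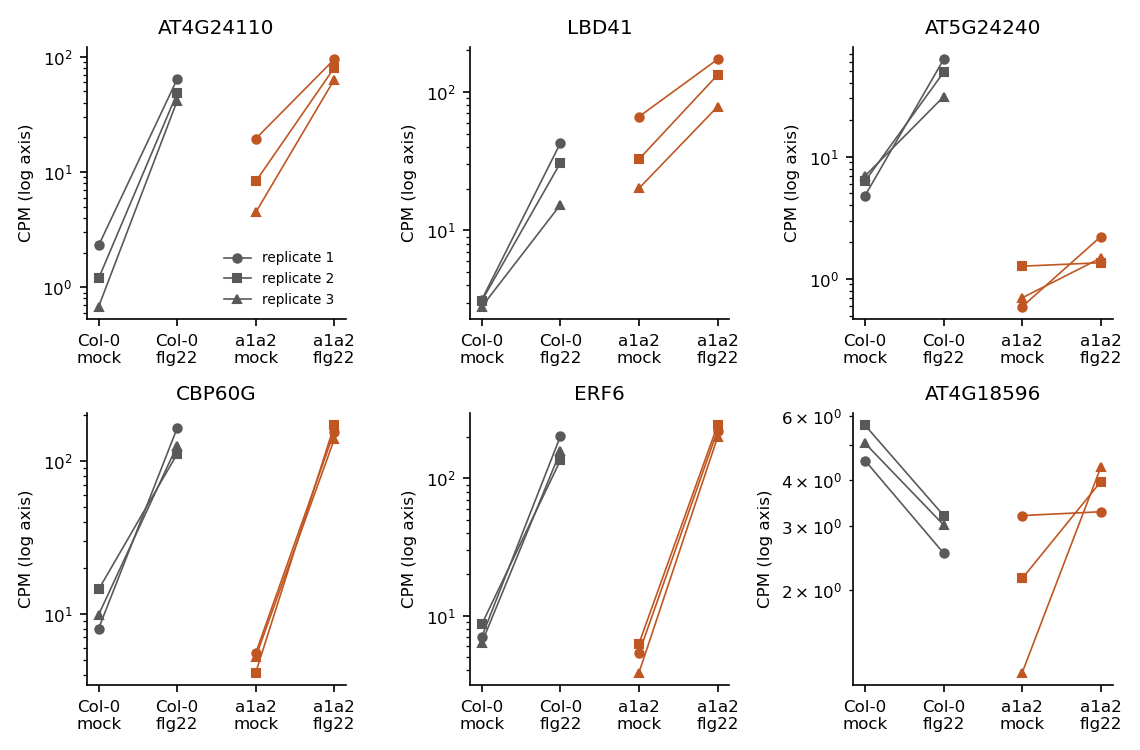
CPM of 6 genes in each of the 12 libraries on a log axis, with the groups along the horizontal axis and lines joining the mock and flg22 libraries of the same replicate number. For AT4G24110 the mock level differed between the genotypes and the flg22 level less so, AT5G24240 was lower in every a1a2 library, and AT4G18596 moved down in Col-0 and up in a1a2.

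The other weaker responses were of low level. AT5G44570 rose from 0.121 to 0.266 CPM in mock to 1.49 to 2.04 CPM after flg22 in Col-0, and from 0.962 to 1.36 CPM to 2.86 to 4.17 CPM in a1a2, an interaction of -1.54 ± 0.43 (SE). AT3G08870 rose in both genotypes with an interaction of -0.94, and AT3G23260 rose in Col-0 alone by the test, with an interaction of -1.40. AT4G25250 fell in Col-0 by 0.97 on the log2 scale, and in a1a2 its change was -0.09 (edgeR adjusted p = 0.71). Its interaction was 0.88 ± 0.25 (SE), positive because the weaker response was a fall. AT1G80315, with an interaction of -6.75 ± 2.16 (SE), was at 0 in 2 of the 3 libraries of mock-treated Col-0 and in 1 each of the flg22-treated Col-0 and mock-treated a1a2 libraries. Its replicate numbers gave -0.44, -0.68 and -6.03, and the fitted value ran from -8.86 to -4.99 when a library or a number was left out, the latter without replicate number 3. It overlaps AT1G80310 and AT1G80325 in the annotation.

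Among genes that responded more strongly in a1a2, CBP60G (AT5G26920, chr5:9475679-9478777, plus strand) had the second smallest p. It encodes a calmodulin-binding transcription factor of genes for salicylic acid synthesis. It stood at 8.01, 14.4 and 9.85 CPM in mock-treated Col-0 and at 165, 111 and 126 CPM after flg22. For a1a2 the values were 5.53, 4.12 and 5.20 CPM in mock and at 156, 171 and 139 CPM after flg22. The genotypes did not overlap in mock, where a1a2 was lower, and overlapped after flg22. The rise was 12.5-fold in Col-0 and 31.2-fold in a1a2. The interaction was 1.32 ± 0.30 (SE, DESeq2 adjusted p = 0.0321), with 0.45, 2.41 and 1.05 in the replicate numbers, and it was 0.75 without replicate number 2. The difference in mock was -1.11 (edgeR adjusted p = 0.062) and that after flg22 was 0.21.

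CSLC04, a cellulose-synthase-like glucan synthase of xyloglucan, had the smallest p of the class. It rose in Col-0 from 67.7, 66.6 and 76.9 CPM to 113, 113 and 168 CPM, and in a1a2 from 49.7, 50.2 and 51.2 CPM to 121, 160 and 183 CPM. Every mock library of a1a2 was below every mock library of Col-0, and the flg22 libraries overlapped. The interaction was 0.72 ± 0.16 (SE), with 0.55, 0.90 and 0.71 in the replicate numbers. The ethylene response factor ERF6 rose from 7.04, 8.68 and 6.37 CPM to 202, 135 and 157 CPM in Col-0, and from 5.33, 6.26 and 3.85 CPM to 222, 242 and 198 CPM in a1a2. Its rise was 22.5-fold and 43.1-fold, and its interaction 0.94 ± 0.23 (SE) came from 0.53, 1.31 and 1.05. CAF1a, of the CCR4-associated deadenylases that shorten mRNA tails, rose by 2.25 on the log2 scale in Col-0 and by 3.34 in a1a2, with an interaction of 1.08 ± 0.27 (SE).

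AGP10, an arabinogalactan protein, had an interaction of 0.73, and HIR2, of the hypersensitive-induced reaction proteins, one of 0.61. Both rose in both genotypes, and each overlaps another annotated gene (AT4G09035 and VDAC1). A pair of the genes named in this class responded with a stronger fall. AT1G72890, annotated as a TIR-NBS protein, fell by 0.92 on the log2 scale in Col-0 and by 1.97 in a1a2 (interaction -1.05 ± 0.28, SE). AT3G45680, a major facilitator family transporter, fell in a1a2, and in Col-0 with library size alone only (-0.77, edgeR adjusted p = 0.013). In flg22-treated a1a2 it stood between 0.252 and 0.937 CPM, and its interaction was -1.50 ± 0.40 (SE).

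**Figure D3:**
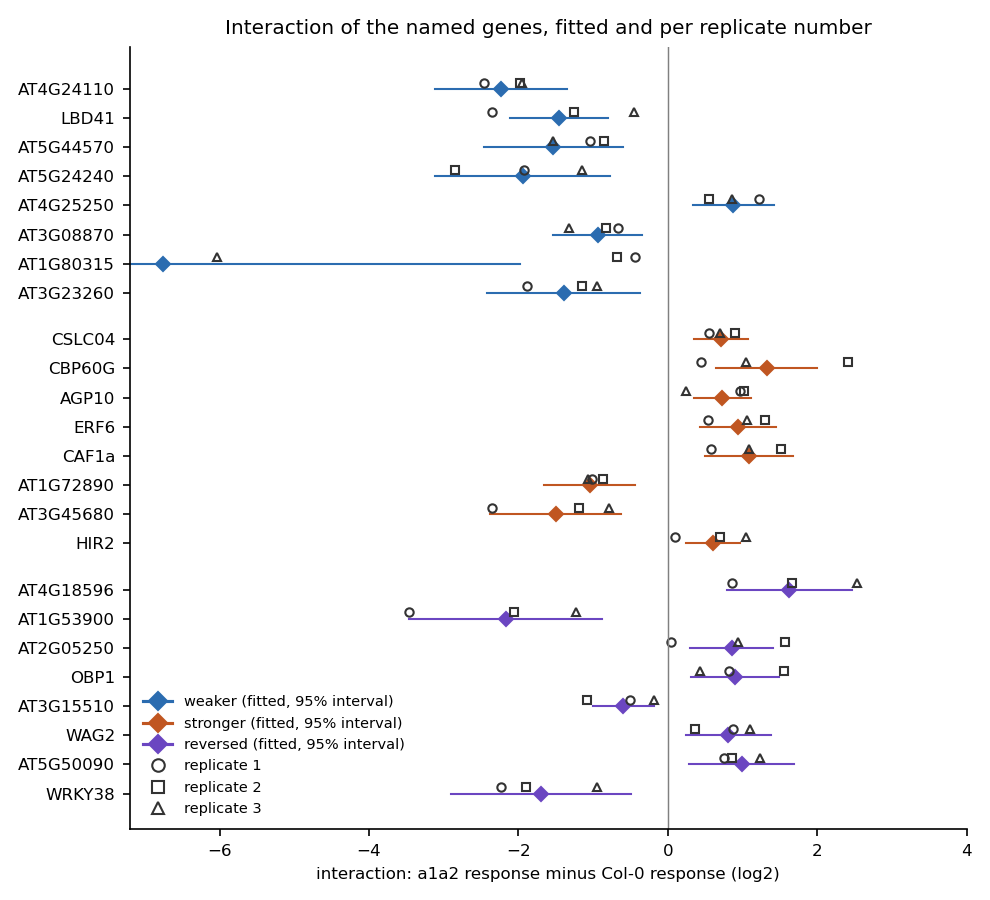
Interaction (log2) of the 24 genes named from the 3 classes, with a point for each replicate number and the fitted value with its 95% confidence interval. By the rule that chose the genes all 3 points of a gene lie on one side of 0, and the points of LBD41, CBP60G and AT1G80315 lie farther apart than those of AT4G24110. The interval of AT1G80315 runs past the left edge, and AT1G53900 and AT2G05250 are near-identical copies of other genes.

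Responses of opposite sign were mostly small or of low level. AT4G18596 (chr4:10238976-10241975, plus strand), annotated as a protein of the pollen Ole e 1 family, was the one named gene with a called response in both directions, although its rise in a1a2 did not pass with library size alone (0.57, edgeR adjusted p = 0.11). It fell in Col-0 from 4.53, 5.67 and 5.05 CPM to 2.52, 3.20 and 3.01 CPM (edgeR adjusted p = 0.030) and rose in a1a2 from 3.20, 2.15 and 1.18 CPM to 3.28, 3.96 and 4.34 CPM (edgeR adjusted p = 0.033). The Col-0 libraries did not overlap between treatments, nor did those of a1a2, although replicate 1 of a1a2 changed by only 0.03 on the log2 scale. The interaction was 1.62 ± 0.38 (SE), with 0.86, 1.66 and 2.53 in the replicate numbers. The gene lies opposite WAVE5, whose interaction had the other sign, at -0.34.

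WRKY38, a WRKY transcription factor, stood at 0.728, 1.64 and 1.02 CPM in mock-treated Col-0 and at 1.39, 2.37 and 1.41 CPM after flg22. In a1a2 it stood at 1.07, 0.963 and 1.44 CPM in mock and at 0.353, 0.313 and 0.987 CPM after flg22. Neither response passed the test, except that with library size alone the fall in a1a2 did (-1.32, edgeR adjusted p = 0.018), and the interaction of -1.70 ± 0.56 (SE) came from -2.23, -1.89 and -0.94. The Dof transcription factor OBP1 rose in a1a2 by 1.85-fold and stayed between 2.27 and 4.71 CPM in Col-0 (interaction 0.90). AT5G50090 rose in a1a2 alone by the test, and not with library size alone (0.50, edgeR adjusted p = 0.076), with an interaction of 0.99. WAG2, a protein kinase of polar auxin transport, had an interaction of 0.81, and AT3G15510, a NAC transcription factor, one of -0.60.

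For a few genes of this class the value turned on how reads of near-identical copies were shared out. All exonic 31-base words of AT1G53900, an eIF-2B family protein, occur elsewhere in the genome (100%), as do 97.8% of those of AT2G05250, a DNAJ protein. AT1G53900 had an interaction of -2.17 alone, and of 0.03 after its counts were summed with those of AT1G53875 and AT1G53880. AT2G05250 had 0.85 and its copy AT2G05230 had -1.04, and their sum gave 0.07. AT1G27580 had -2.85, with 74.2% of its words found elsewhere, and -0.01 after summing with AT1G27540. They are counted in the 151 genes, of which 147 met the rule after the counts of copies were summed.

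The early PTI markers were the list that stood highest. All 36 of them, among them transcription factors of the WRKY, ERF and ZAT families, plant U-box ligases and peroxidases, rose in both genotypes (35 in each with library size alone). Their fitted interaction was above 0 for 32 of 36, against 53.8% of all tested genes, and the median was 0.46 against 0.01. Of the 2833 genes called as rising in both genotypes 1843 were above 0, with a median of 0.07. For those with a mean rise of 3 to 4 on the log2 scale the median was 0.21, and above 4 it was 0.30. Within the replicate numbers the median of the 36 markers was -0.06, 0.50 and 0.69, so number 1 did not share the positive value. Over the fits that each left out a library or a number it was 0.25 to 0.65. Of the 36, 14 were above 0 in all 3 numbers (12.2% of all tested genes) and 9 had an unadjusted p under 0.05 (2.11% of all). Such a p was held by 11.1% of the rising genes with a mean rise of 3 to 4 and by 11.9% above 4. The median of the difference between a1a2 and Col-0 was -0.26 in mock and 0.14 after flg22, and these values share libraries with the interaction. None of the 36 passed the adjusted test in edgeR or DESeq2.

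WRKY33 (AT2G38470), a transcription factor of camalexin synthesis, was one of 6 PTI markers among the 151 genes. It stood at 27.7, 32.6 and 28.7 CPM in mock-treated Col-0 and at 1097, 664 and 897 CPM after flg22. The a1a2 values were 25.3, 20.7 and 18.2 CPM in mock and at 1074, 1072 and 1025 CPM after flg22. Each a1a2 mock library was below each Col-0 mock library, and the flg22 libraries overlapped. The interaction was 0.75 ± 0.21 (SE), with 0.10, 1.35 and 0.84 in the replicate numbers. MYB51, a regulator of indolic glucosinolates, went from 16.4, 13.7 and 7.94 CPM to 572, 385 and 244 CPM in Col-0, and from 13.6, 12.7 and 4.81 CPM to 543, 563 and 319 CPM in a1a2. Both genotypes overlapped under each treatment, and within the numbers the interaction was 0.19, 0.66 and 1.10. The peroxidase gene PER4 had the highest fitted value of the list, 1.33, ZAT10 had 0.69 and ERF104 had 0.72. The lowest was FRK1, a receptor kinase gene used as a PTI reporter, at -0.25 with -1.36, 1.31 and 0.96 in the numbers, and the sign of FRK1 turned to 0.41 in DESeq2.

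Promoters are shown for a pair of genes whose response was weaker and a pair of PTI markers whose response was stronger, since WRKY factors bind the W-box core. The 250 bases before the RefSeq gene start (build TAIR10.1) are given 5′ to 3′ on the strand of the gene, and capitals mark TTGAC or its reverse complement GTCAA. They are AT4G24110 (chr4:12520899-12521148, minus strand), AT5G24240 (chr5:8234151-8234400, minus strand), WRKY33 (chr2:16107985-16108234, plus strand) and MYB51 (chr1:6389149-6389398, plus strand).
AT4G24110: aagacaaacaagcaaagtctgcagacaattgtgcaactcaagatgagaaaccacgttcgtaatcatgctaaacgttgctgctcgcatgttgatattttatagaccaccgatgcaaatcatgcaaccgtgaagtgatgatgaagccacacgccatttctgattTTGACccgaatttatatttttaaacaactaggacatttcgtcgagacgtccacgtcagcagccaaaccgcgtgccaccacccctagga
AT5G24240: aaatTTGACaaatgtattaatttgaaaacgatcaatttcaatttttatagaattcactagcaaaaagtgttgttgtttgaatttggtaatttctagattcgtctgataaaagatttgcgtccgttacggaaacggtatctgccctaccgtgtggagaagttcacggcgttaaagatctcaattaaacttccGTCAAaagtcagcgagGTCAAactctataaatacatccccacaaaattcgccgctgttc
WRKY33: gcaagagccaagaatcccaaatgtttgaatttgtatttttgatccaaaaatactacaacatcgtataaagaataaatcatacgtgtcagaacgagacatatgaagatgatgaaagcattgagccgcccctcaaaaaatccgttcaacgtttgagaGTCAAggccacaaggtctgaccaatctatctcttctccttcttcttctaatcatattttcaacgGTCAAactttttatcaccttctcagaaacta
MYB51: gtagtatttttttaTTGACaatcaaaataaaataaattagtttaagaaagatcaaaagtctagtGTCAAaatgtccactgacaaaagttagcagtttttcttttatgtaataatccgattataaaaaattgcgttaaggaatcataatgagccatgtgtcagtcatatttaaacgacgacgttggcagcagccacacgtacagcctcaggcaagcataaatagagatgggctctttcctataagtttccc

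The W-box core occurred once in this window of AT4G24110, 3 times in AT5G24240 and 2 times each in WRKY33 and MYB51, so that genes of weaker and of stronger response both held it. It was present in 28 of the 36 PTI marker promoters (77.8%) and in 45.4% of all 23738 promoters of the same length. Among the receptor and proximal kinase genes 19 of 23 promoters held it (82.6%), and among the hypoxia markers 21 of 43 (48.8%). No core was found in the window of CBP60G, LBD41 or ERF6. A match is a description of the letters and was not tested for binding.

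The interaction of rising genes was larger where the rise was larger, except in replicate number 1. This was seen over the 2833 genes called as rising in both genotypes, grouped by the mean of the 2 responses. That mean and the interaction come from the same libraries, so the grouping is a description and not a test. The median interaction was 0.00 for the 694 genes with a mean rise of up to 1 on the log2 scale, 0.05 for the 1010 genes between 1 and 2, and 0.14 for the 487 between 2 and 3. It was 0.21 for the 298 genes between 3 and 4 and 0.30 for the 344 genes above 4. In the last group the medians within replicate numbers were -0.10, 0.45 and 0.54, and 11.9% of its genes had an unadjusted p under 0.05, against 1.01% in the first. There the a1a2 libraries were lower than Col-0 in mock by a median of 0.19 on the log2 scale and higher after flg22 by 0.10. Over all rising genes the median was 0.07, and leaving out mock-treated Col-0 replicate 3 gave -0.01. For the 1498 genes that fell in both genotypes the median was -0.02. It was -0.01 for the 820 genes with a mean fall of up to 1 on the log2 scale, -0.04 for the 618 between 1 and 2 and -0.19 for the 60 above 2, where the numbers gave 0.01, -0.04 and -0.40.

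**Figure D4:**
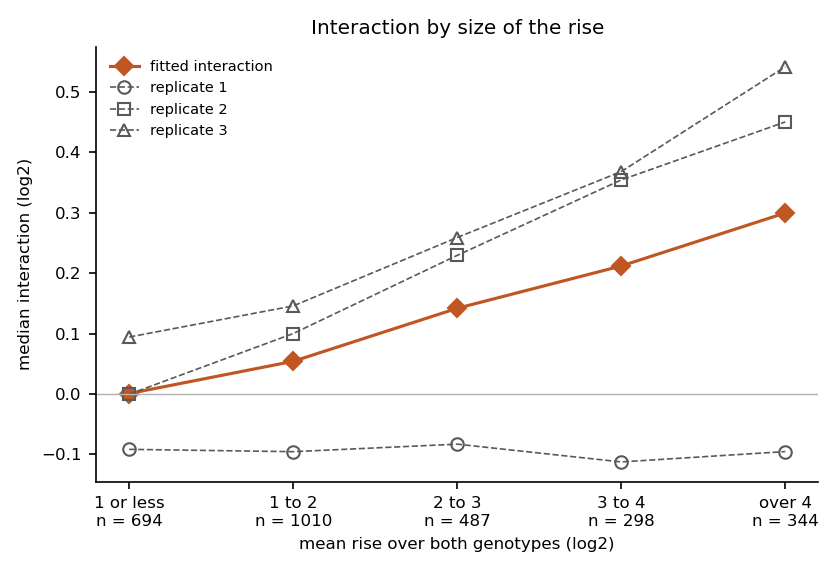
Median interaction (log2) of the genes called as rising in both genotypes, grouped by their mean rise with flg22 (log2), for each replicate number and for the fit. The fitted median goes from 0.00 in the group with the smallest rise to 0.30 in that with the largest, while replicate number 1 stays between -0.11 and -0.08.

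Perception and early signalling genes had lower medians than the PTI markers, a difference that was not tested. FLS2, the flg22 receptor, rose in both genotypes and had an interaction of -0.03, its co-receptor BAK1 had 0.20 and the cytoplasmic kinase BIK1 had 0.19. Of the 23 receptor and proximal kinase genes 20 were above 0, against 53.8% of all tested genes and 1843 of the 2833 rising in both genotypes. Their median was 0.16, and it was -0.08, 0.27 and 0.32 within the numbers. The lowest was RLP23 at -0.50 and the highest IOS1 at 0.46, and 0 of the 23 had an unadjusted p under 0.05. Of the 22 MAP kinase, calcium and oxidative burst genes 14 were above 0, with a median of 0.07. An unadjusted p under 0.05 was held by 3 of the 22, against 2.11% of all tested genes. The highest was the kinase gene MPK11 with 0.72, which rose from between 0.974 and 1.40 CPM to between 78.8 and 143 CPM in Col-0 and from between 0.438 and 1.22 CPM to between 74.9 and 137 CPM in a1a2. The NADPH oxidase genes RBOHD and RBOHF, sources of the oxidative burst, had 0.18 and -0.15.

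The salicylic acid list held values on both sides, and of its 24 genes 15 lay below 0, with a median of -0.09. The 5 with an unadjusted p under 0.05 were PR1 (-1.33), FMO1 (-1.02), PR2 (-0.59), NPR3 (0.35) and CBP60G (1.32). Such a p was held by 2.11% of all tested genes and 5.08% of the genes called as rising in both genotypes. FMO1, which makes the systemic resistance signal N-hydroxypipecolic acid, stood at 2.59, 3.94 and 1.70 CPM in mock-treated Col-0 and at 8.27, 9.13 and 4.37 CPM after flg22. Its a1a2 values were 3.08, 2.71 and 2.40 CPM in mock and at 3.23, 3.23 and 4.05 CPM after flg22. It rose in Col-0 by 1.40 on the log2 scale and its change in a1a2 was 0.38, which did not pass (edgeR adjusted p = 0.30). The interaction was -1.58, -0.95 and -0.59 in the numbers. The defence marker PR1 stood between 6.29 and 9.61 CPM in the 6 Col-0 libraries, between 4.33 and 11.8 CPM in mock-treated a1a2 and between 2.02 and 5.37 CPM in flg22-treated a1a2, and replicate number 2 gave 0.04 where the others gave -1.23 and -2.70.

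Hypoxia markers were higher in a1a2 under both treatments, and their interactions lay on both sides of 0. Of 43 tested, 23 were called as higher in a1a2 in mock, where 0.445% of all tested genes were higher and 0.514% lower, and 23 after flg22, where 0.308% were higher and 0.519% lower. The median interaction was -0.10, and 25 of 43 were below 0, but the median moved to 0.05 when either mock-treated Col-0 replicate 1 or mock-treated a1a2 replicate 1 was left out. The 4 with an unadjusted p under 0.05 (2.11% of all tested genes) were AT4G24110, LBD41, HRE2 (-1.08) and AT5G44730 (0.36). HRE2, an ERF-VII gene that is itself induced by hypoxia, stood between 0.170 and 0.364 CPM in mock-treated Col-0 and between 0.822 and 0.972 CPM after flg22. In a1a2 it stood at 4.18, 2.23 and 1.88 CPM in mock and at 5.44, 3.23 and 3.16 CPM after flg22, so that all a1a2 libraries were above all Col-0 libraries. Its rise passed in Col-0 (1.61) and not in a1a2 (0.53).

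Of the 12 hypoxia markers called as rising with flg22 in Col-0, 10 had an interaction below 0, with a median of -0.25 and of -0.53, -0.59 and 0.00 within the numbers. The Col-0 libraries both chose these 12 and enter their interaction, so the count is given as a description only. The calmodulin-like gene CML38 had -1.24 and was below 0 in all 3 numbers, and the haemoglobin gene HB1 had -0.23. AlaAT1, an alanine aminotransferase gene, was one of the 2 above 0, at 0.04. The other 31 markers had a median of 0.01. Among them, the fermentation genes ADH1 and PDC1 had 0.16 and -0.64, and the oxidase genes PCO1 and PCO2, whose products start the degradation of ERF-VII proteins, had 0.41 and 0.15. The highest value, 2.03 for AT2G17850, came with 0 or 1 count in every Col-0 library and is not a measure of response there.

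A longer, published list of genes that respond to 2 h of hypoxia was also examined. Of 425 tested genes that rise in hypoxia, 257 were above 0, against 53.8% of all tested genes. Of the genes called as rising with flg22 in both genotypes, 1843 of 2833 were above 0. In all 3 numbers, 98 of the 425 were above 0, against 12.2% of all tested genes. An unadjusted p under 0.05 was found for 48 of the 425 (11.3%). That share was 2.11% of all tested genes and 5.08% of the genes called as rising with flg22 in both genotypes. The median of the 425 genes was 0.07. In Col-0, 252 of the 425 rose with flg22. Of 232 that fall in hypoxia, 9 had an unadjusted p under 0.05 (3.88%), with a median of -0.03. Among the 14 genes of the N-degron pathway itself the median was -0.03 and 0 had an unadjusted p under 0.05. The interaction of ATE1 was 0.15 and that of ATE2, which lies at under 1 CPM in a1a2, was -0.43. The lowest of the list was ZPR2, a LITTLE ZIPPER gene, at -0.93 and at 1.09 CPM or less in every library.

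**Figure D5:**
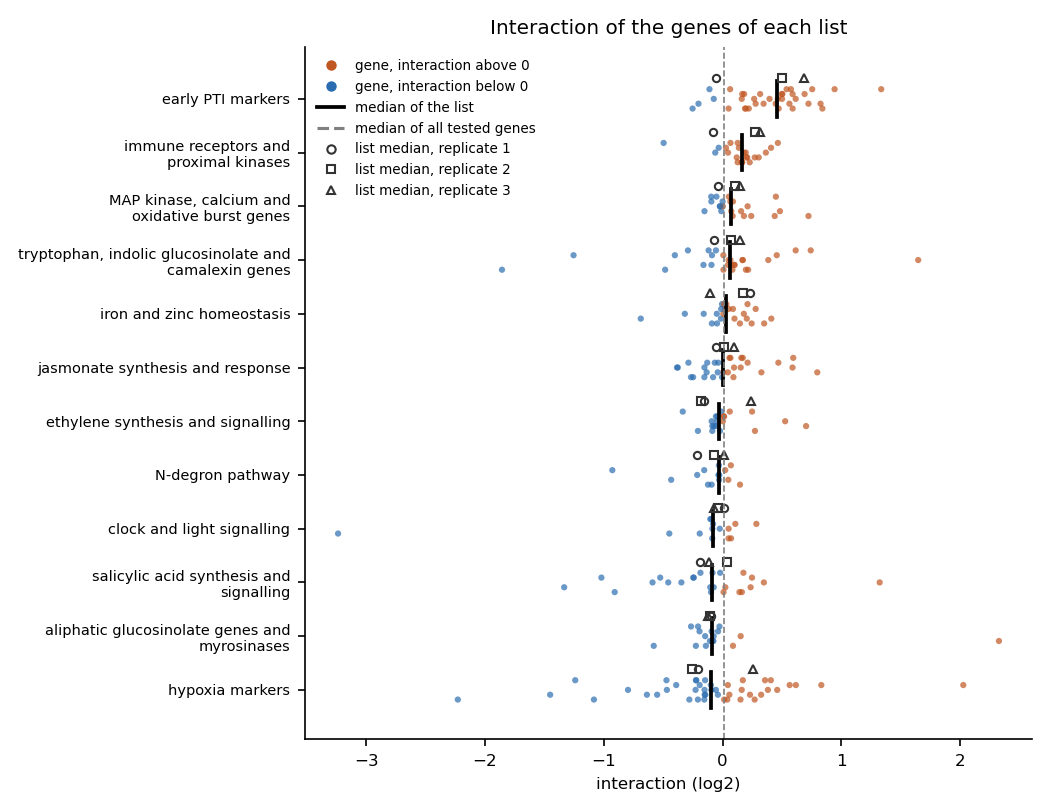
Interaction (log2) of each tested member of the gene lists as points, with the median of each list as a bar and the median of all tested genes as a line. The early PTI markers have the highest median of the pathway lists, 0.46, and the lists of jasmonate, ethylene, iron and N-degron genes lie around 0.

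In the list of 28 tested tryptophan, indolic glucosinolate and camalexin genes 18 were above 0, against 53.8% of all tested genes. The median was 0.06 (-0.09 to 0.16 with a library or number left out). The 4 with an unadjusted p under 0.05 (2.11% of all tested genes) were MYB34 (-0.40), CYP83B1 (0.38), MYB51 (0.61) and CYP71A12 (1.65). CYP71A12, a cytochrome P450 of indole-3-carbonylnitrile and camalexin synthesis, stood at 1.58, 5.80 and 2.08 CPM in mock-treated Col-0 and at 132, 98.3 and 39.0 CPM after flg22. In a1a2 it stood at 0.908, 1.36 and 0.306 CPM in mock and at 97.1, 84.8 and 38.0 CPM after flg22. The genotypes overlapped after flg22 and did not in mock, and the numbers gave 0.30, 1.81 and 2.41. CYP82C3, the lowest of the list at -1.86, was at 3 counts or fewer in every mock library of Col-0 and has no stable value. Of the 17 aliphatic glucosinolate genes and myrosinases 14 were below 0 and 7 were below 0 in all 3 numbers, where 10% of all tested genes were, with a median of -0.09 (-0.21 to -0.0062 with a library or number left out) and 0 at an unadjusted p under 0.05. MYB29 and MYB28, regulators of this branch, fell in both genotypes and had -0.58 and -0.27. MYB76 had 2.33 at near-zero counts after flg22.

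Hormone and nutrient lists showed no shared direction. Of 29 jasmonate genes 15 were above 0 with a median of 0.00. The 2 with an unadjusted p under 0.05 were VSP2 (0.47), a storage protein gene, and JAZ1 (0.59), a repressor of jasmonate signalling. Such a p was held by 2.11% of all tested genes. JAZ1 rose from between 34.5 and 42.0 CPM to between 239 and 406 CPM in Col-0 and from between 25.4 and 28.8 CPM to between 291 and 388 CPM in a1a2. Of 20 ethylene genes 8 were above 0, with a median of -0.03, from ACS2 at -0.34 to ACS7 at 0.70. The medians were 0.02 for 24 iron and zinc genes, from NAS2 at -0.69 to IMA1 at 0.41, and -0.08 for 14 clock and light genes, from CIB1 at -3.24 to TOC1 at 0.28. CIB1 was at 0 in 1 flg22-treated Col-0 library and in 2 flg22-treated a1a2 libraries. None of the 3 last lists held a gene at an unadjusted p under 0.05.

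Of 5 genes that the study itself brought forward, 4 had a fitted interaction below 0, and the 95% interval of each of the 5 included 0. The callose synthase gene GSL5 rose from 63.7, 65.7 and 68.2 CPM to 138, 152 and 115 CPM in Col-0, and from 86.2, 68.1 and 74.7 CPM to 147, 145 and 116 CPM in a1a2, with an interaction of -0.20 ± 0.16 (SE). Its rise in a1a2 was 0.82 on the log2 scale, and 0.57 with library size alone, under the fold threshold. PDF2.1, VSP1, CRK25 and CHIA, which code for a defensin, a storage protein, a cysteine-rich receptor kinase and a chitinase, had -0.46, -0.38, -0.28 and 0.22. Leaving out a library or number gave -1.05 to -0.21 for PDF2.1, -0.59 to -0.04 for VSP1, -0.66 to -0.03 for CRK25 and 0.0016 to 0.47 for CHIA. Of these 5, 3 were called as lower in a1a2 in mock (0.514% of all tested genes) and 4 after flg22 (0.519%). The study named PDF2.1, VSP1, CRK25 and CHIA for lower expression in flg22-treated a1a2 in these same samples. It named GSL5 for a smaller rise in a1a2. The counts for the 5 genes are thus a description and no independent evidence. Of 28 genes that the study lists as different between the genotypes after flg22 alone, 8 had an interaction above 0, and the median was -0.25. An unadjusted p under 0.05 was held by 4 of the 28, against 2.11% of all tested genes. That list was chosen on these samples and is no independent evidence.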

How the data were processed

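Poly(A) RNA of 12 libraries was sequenced as paired 100-base reads. Per the labels and methods, the authors filtered reads with SOAPnuke and mapped them to TAIR10 with HISAT, and the labels also list DESeq2. The versions and the counting step are not given in the sources used here. The deposited values are estimated counts per gene (expected counts, 7.5% of them fractional) for 23739 genes. They were rounded to whole numbers. The file also holds 4 columns of the authors' group means, not used here.

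Genes were filtered with filterByExpr, leaving 20439, and fitted with edgeR 4.0.16 (R 4.3.3, TMM scaling, robust quasi-likelihood test, Benjamini-Hochberg adjustment) on all 12 libraries with the replicate number as a block. The labels do not say what libraries of the same number share. Deviations from the group means correlated at 0.218 to 0.66 in 18 same-numbered pairs and at -0.549 to 0.154 in 36 others. The deviations were centred within each group, so one range is not independent of the other. A response was called at an adjusted p under 0.05 and over 1.5-fold. Values within a replicate number are differences of log2 CPM with a prior count of 2. P-values measure the spread between pools grown for one study. The fit was also run on simulated counts with an assumed spread, in which only chosen genes of flg22-treated a1a2 were changed. That run does not measure the power of the interaction test in these data, where many genes respond to flg22. DESeq2 1.42.0, other scaling, no filter, no block and leaving out libraries were tried. Named genes were the 8 of smallest p per class, those called by any fit of all libraries, the lowest and highest of each list and those named by the study, and others are named as members that passed an unadjusted threshold or for their role. The genes and lists were chosen with earlier results of these data known. CPM were scaled with the TMM factors and not for gene length, so levels are compared only within a gene.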

Additional observations from a re-analysis of the deposited data

Results flagged for a closer look

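In DESeq2 with the replicate block, 4 genes differed in their flg22 response between the genotypes at an adjusted p under 0.05, whereas edgeR called none of them. The DESeq2 interactions were -2.22 for AT4G24110, -1.40 for LBD41, -1.94 for AT5G24240 and 1.33 for CBP60G. Each had the same sign in 3 of 3 replicate numbers, by the rule that named them.

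AT4G18596, with an interaction of 1.62, and WRKY38, with -1.70, changed in one direction in every replicate of Col-0 and in the other in every replicate of a1a2. The change of AT4G18596 in replicate 1 of a1a2 was only 0.03 on the log2 scale. With TMM scaling neither response of WRKY38, a gene with a mean of 1.14 CPM, passed the test. Neither gene passed the adjusted test of the difference in edgeR or DESeq2.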

How the results depend on the processing

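The interaction count in edgeR remained 0 under other scaling, without the filter on low counts, without the replicate block and in the 15 fits that each left out a library or a replicate number, and DESeq2 with the block gave 4. Without the replicate block, 188 genes had an unadjusted interaction p under 0.05, 83 met the rule for a different response (76 of them among the 151), and 34 genes differed between the genotypes in mock and 28 after flg22, against 196 and 169 with it. DESeq2 with the block gave 282, 323 in mock and 275 after flg22, and without the block 160, with 80 meeting the rule, 103 in mock and 82 after flg22. With a library or number left out, the genes at an unadjusted p under 0.05 ranged from 265 to 794, those meeting the rule from 92 to 216, those different in mock from 65 to 376 and after flg22 from 49 to 248. The lowest of each came without replicate number 2. In each alternative fit the rule took the mean level and the signs from all 12 libraries, so its counts are not full leave-out counts. The 794 came without flg22-treated Col-0 replicate 1, and the 376 without mock-treated Col-0 replicate 1. The cause was not tested.

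Of 63 named genes, 52 kept their sign in the 6 other settings and the 15 fits that left something out. Signs turned for RBCS1A without the block (-0.032), with library size alone (-0.00071) and in DESeq2 without the block (-0.022), for FRK1 in DESeq2 with it (0.41), and for AT1G53900 with copies summed (0.026), an alternative added after seeing the data. Leaving out a library or number gave ranges that cross 0 for ATE1 (-0.10 to 0.35), FRK1 (-0.78 to 1.51), RBOHF (-0.39 to 0.014), JAZ8 (-1.47 to 0.39), ACS2 (-1.09 to 0.30), CYP82C3 (-2.85 to 1.05), RBCS1A (-0.19 to 0.29), CA1 (-0.071 to 0.35), PYK10 (-0.34 to 0.076), WOX5 (-0.051 to 1.44) and AT5G24640 (-1.50 to 1.00). With 3 replicates a group, intervals of named genes near 1 CPM were wide. They ran from -2.91 to -0.49 for WRKY38 (mean 1.14 CPM) and from -11.5 to -1.97 for AT1G80315 (mean 1.32 CPM).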
